A study of Mus musculus with 6 samples.

Results

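Aminoacyl-tRNA synthetases were examined in RNA from mouse blastocysts that had been cultured with vesicles from the human Fallopian tube. The members were the rows whose Ensembl identifiers map to 36 listed symbols, 20 for enzymes of the cytosol and 16 for mitochondrial enzymes (symbols ending in 2), of 55774 genes in the table. Symbols and positions are those of GENCODE M21 on GRCm38, and Mars1 was matched through its older symbol Mars. Embryos of ICR mice with a WT genotype were placed at the 2-cell stage in CZB medium with extracellular vesicles (oEV) and grown to blastocysts. The vesicles came either from women with endometriosis (oEV-EMT, 3 libraries) or from women with another gynaecological condition (oEV-ctrl, 3 libraries), and each library was made from 10 pooled blastocysts. The labels and the paper name different conditions for the control donors, and no embryos without vesicles were sequenced. Human vesicles on mouse embryos are a model across species, and all libraries shared the strain, medium and culture.

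An aminoacyl-tRNA synthetase joins 1 amino acid to its matching tRNA, and so sets which amino acid each codon brings into a protein. The cytosol and the mitochondrion mostly use separate enzymes, all encoded in the nucleus, although Gars (glycine) and Kars (lysine) each encode both forms from 1 gene. Some cytosolic enzymes sit together in the multisynthetase complex, held by the scaffold proteins Aimp1, Aimp2 and Eef1e1. Synthetases fall into class I and class II by the fold of their catalytic domain. Several cytosolic synthetase genes are known targets of the transcription factor Atf4, which acts when amino acids are short.

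The sequences around the start sites are shown for the cytosolic members with the lowest unadjusted p and for those with a site of the amino acid response. RefSeq promoters on GRCm38.p6, from 250 bases before to 50 bases after the start, were matched for 27 of the 36 members. Hars, Cars, Rars, Nars, Pars2, Lars, Vars, Wars and Hars2 had no entry. Farsa, Farsb and Kars are shown from 250 bases before the start to 10 bases after it, 5′ to 3′ on the strand of the gene. Capitals mark a CCGGAAG match (an ETS site, on either strand) in Farsa and Kars and a CACGTG match (an E-box) in Farsb.
Farsa (chr8:84856736-84856995, plus strand): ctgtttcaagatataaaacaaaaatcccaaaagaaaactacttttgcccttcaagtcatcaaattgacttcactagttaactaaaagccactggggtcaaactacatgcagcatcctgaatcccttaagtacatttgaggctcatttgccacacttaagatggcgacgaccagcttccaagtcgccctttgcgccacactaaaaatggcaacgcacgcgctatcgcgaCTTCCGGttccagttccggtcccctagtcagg
Farsb (chr1:78488888-78489147, minus strand): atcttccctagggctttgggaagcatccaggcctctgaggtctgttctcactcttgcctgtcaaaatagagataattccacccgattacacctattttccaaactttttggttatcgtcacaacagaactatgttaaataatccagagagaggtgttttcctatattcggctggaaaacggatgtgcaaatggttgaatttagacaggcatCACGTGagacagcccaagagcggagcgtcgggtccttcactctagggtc
Kars (chr8:112011345-112011604, minus strand): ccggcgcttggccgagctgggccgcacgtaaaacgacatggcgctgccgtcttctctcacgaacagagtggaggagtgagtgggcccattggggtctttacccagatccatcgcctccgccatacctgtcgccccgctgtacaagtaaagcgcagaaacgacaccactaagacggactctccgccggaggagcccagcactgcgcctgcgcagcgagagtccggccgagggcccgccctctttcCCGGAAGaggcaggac

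The C/EBP-ATF element, TGATGNAA on either strand, is a composite site that Atf4 can bind. It was found in 5 of 13 cytosolic promoters (Yars, Gars, Aars, Iars and Tars) and in 0 of 14 mitochondrial ones, against 3.97% of 32851 promoters of the same length. The first base of the match nearest the start lay 3, 9 and 7 bases after it in Yars, Aars and Iars. In Gars and Tars it lay 30 and 15 bases before the start. The match nearest the start of each gene is shown in capitals with 11 bases on each side, 5′ to 3′ on the strand of the gene.
Yars (chr4:129189895-129189924, plus strand): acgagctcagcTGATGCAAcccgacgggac
Gars (chr6:55037960-55037989, plus strand): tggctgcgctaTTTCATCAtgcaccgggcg
Aars (chr8:111033840-111033869, plus strand): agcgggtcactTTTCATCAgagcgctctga
Iars (chr13:49682126-49682155, plus strand): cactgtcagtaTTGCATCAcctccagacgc
Tars (chr15:11399655-11399684, minus strand): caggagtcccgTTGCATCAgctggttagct

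CCGGAAG was found in 5 cytosolic promoters (Sars, Gars, Farsa, Kars and Mars1) and 4 mitochondrial ones (Mars2, Rars2, Sars2 and Cars2), against 8.86% of all promoters. CACGTG was found in Farsb, Aars, Iars, Tars and Ears2, against 7.15%, and GCGCATGCG, the core of an NRF1 site, in Wars2 and Vars2, against 1.75%. The searches covered both strands, and matches of different motifs overlapped 0 times in the members' promoters. A match describes letters in these windows and does not show binding.

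Values were FPKM, fragments scaled to transcript length and to all fragments of the library, so levels of different genes can be set side by side. The sizes of the libraries, derived from the most common step in the values and therefore approximate, ranged from 17800000 to 36800000 read pairs. By the same estimate, the members rested on between 20 pairs (Aars2 in its lowest library) and 16682 pairs (Rars in its highest). Libraries correlated with r between 0.956 and 0.982 within groups and between 0.954 and 0.974 across groups. The trophectoderm markers Cdx2, Gata3, Krt8, Krt18, Tfap2c and Eomes were all expressed. Of 5 cumulus and granulosa markers, 4 were listed at 0 in every library, and the oviduct epithelium markers summed to at most 0.349 FPKM. Of 3 blood markers, 2 were listed at 0 in every library. The blood markers summed to 0.524 to 2.22 FPKM in oEV-EMT and 0.472 to 1.22 in oEV-ctrl, with overlap. Of 5 oocyte markers, 1 (Oosp1) was listed at 0 throughout, and 3 stayed below 1 FPKM in every library. The oocyte markers summed to 3.84 to 6.93 FPKM in oEV-EMT and 2.35 to 3.29 in oEV-ctrl, without overlap. The inner cell mass markers are given beside the results below.

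In the cytosol, arginyl-tRNA synthetase (Rars) had the highest level, at 214 ± 31 FPKM (SD over 6 libraries), and valyl-tRNA synthetase (Vars) the lowest, at 3.73 ± 1.22. Farsb (141.9 ± 39.2), Nars (138.8 ± 13.8), Gars (114.9 ± 12.1), Kars (98.9 ± 29.3) and Dars (94.9 ± 12) followed Rars. These 6 ranges formed a chain in which each overlapped the next. Dars was above Sars (58.2 ± 14.1) in every library, and Cars (13.8 ± 3.5) was likewise above Vars. Between those steps the order ran Sars, Eprs, Lars, Yars, Mars1, Aars, Tars, Hars, Farsa, Qars, Iars, Wars and Cars, and no neighbours in it were apart. Of the 19 steps down the cytosolic order, the ranges overlapped at 17.

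Mitochondrial synthetases were lower. Rars2, the mitochondrial arginyl-tRNA synthetase, led with 39.3 ± 8.0 FPKM and was above the next, Fars2 (13.3 ± 2.6), in every library. Cars2 (8.94 ± 2.08) and Tars2 (7.73 ± 3.25) came next, then Yars2, Hars2, Ears2, Nars2, Iars2, Sars2, Pars2, Wars2, Mars2, Vars2, Lars2 and Aars2, the last at 0.691 ± 0.307. Only the step from Rars2 to Fars2 of the 15 steps was free of overlap. The arginine gene thus had the highest mean transcript level among the cytosolic members and among those with symbols ending in 2. Gars (114.9 FPKM) and Kars (98.9 FPKM), counted here as cytosolic, also encode mitochondrial forms and were above Rars2.

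For the amino acids with an enzyme in each compartment, the cytosolic level was the higher in every library, by factors that differed widely. The ratio of means was 1.54 for cysteine (Cars to Cars2) and 1.79 for phenylalanine when taken on Farsa to Fars2. It was 41.2 for alanine (Aars to Aars2) and 47.1 for leucine (Lars to Lars2). The ratio of Rars to Rars2 was 5.46, although each had the highest mean of its list. The 2 subunits of cytosolic phenylalanyl-tRNA synthetase, Farsa (alpha) and Farsb (beta), join in equal numbers in the protein, but Farsb was higher in every library. The ratio of Farsb to Farsa was 4.81, 4.75 and 8.70 in oEV-EMT 1 to 3 and 5.30, 8.37 and 5.49 in oEV-ctrl 1 to 3. The ratio was high in 1 library of each group, and the groups overlapped. Of the Farsb transcripts, 7.27% of 50-base stretches were shared with Sgpp2, whose mean FPKM was 0.180.

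**Figure D1:**
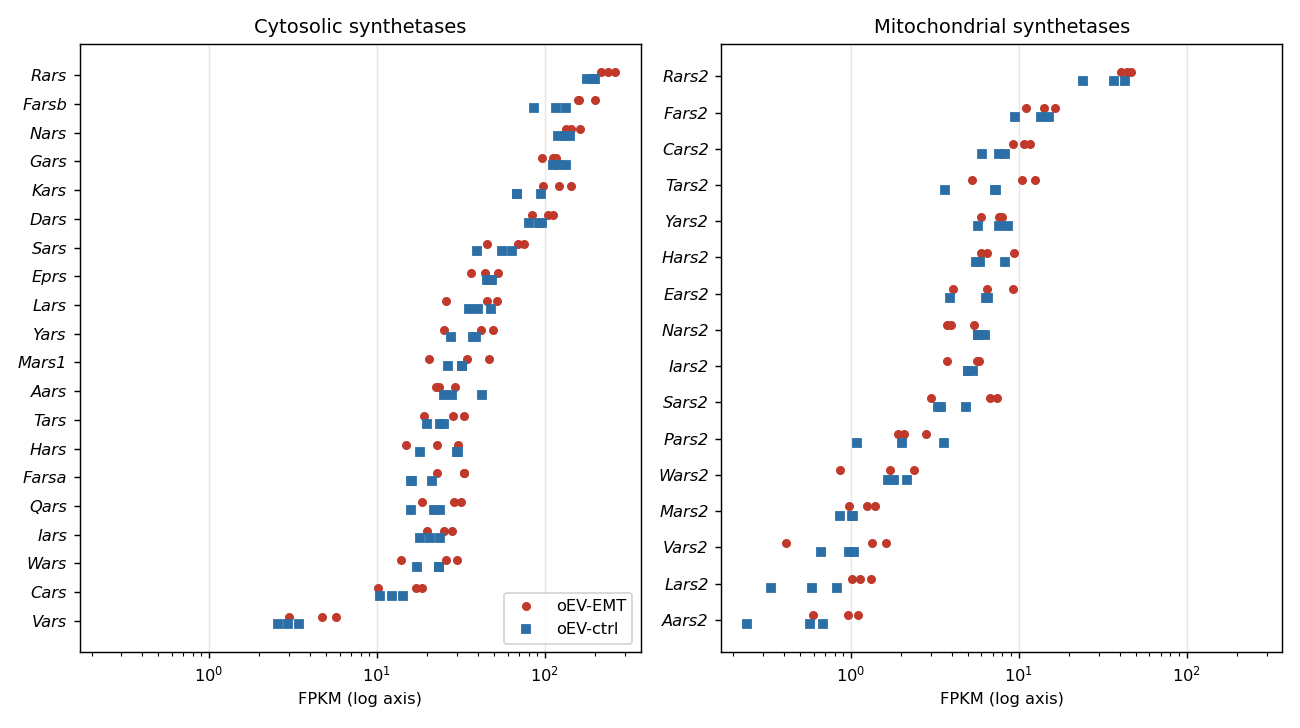
FPKM on a log axis of every cytosolic (left) and mitochondrial (right) synthetase, with red circles for the 3 oEV-EMT libraries and blue squares for the 3 oEV-ctrl libraries, ordered by mean level. Rars stands highest on the left and Rars2 on the right, where Rars2 is separate from the next gene down.

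The comparison of oEV-EMT with oEV-ctrl asked whether the vesicles of women with endometriosis change gene expression in the embryo. The fit was limma on log2(FPKM + 1) over the 11924 genes that reached an FPKM of 1 in 3 or more libraries, which Aars2 alone of the members did not. Differences are oEV-EMT minus oEV-ctrl on this scale. The median over all genes tested was 0.17, so a member is read against that. A gene was called when its adjusted p was no higher than 0.05 and its log2 fold change was 1 or more in size. Of the 35 members tested 0 were called, as were 0 of all genes (0%), and the lowest adjusted p of a member by limma was 0.215. The paper used the same cutoffs with DESeq2 and did report differentially expressed genes, so the 0 calls hold for limma on FPKM. With library weights, limma called 104 genes and 0 members. At an unadjusted p of at most 0.05, 4 members were higher (Farsa, Farsb, Kars and Lars2) and 0 lower, against 12.8% and 2.55% of all genes. Lars2 passed the filter through its oEV-EMT libraries alone, all 3 of its oEV-ctrl values being under 1, so its direction was nearly fixed by the filter and its p is no support. Nothing in the labels says that the pools came from separate collections, so p-values measure only the spread between these pools. In pools of whole embryos, fewer cells of a type and less RNA per cell cannot be told apart.

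The groups did not overlap in 7 members. Farsa, Farsb, Kars, Rars, Cars2 and Lars2 were the 6 with every oEV-EMT library the higher, and Nars2 was the 1 with every oEV-EMT library the lower. Among all genes tested the shares were 18.1% above and 4.34% below, and the members' counts, 6 of 35 and 1 of 35, were near these. Of the 6, Lars2 entered through the group where it is high, as said above. Both counts depended on oEV-EMT 3 and on the scaling, as described below. The other 28 overlapped. With 3 libraries against 3, the exact two-sided permutation test cannot give a p below 0.1, which is the value each of the 7 had.

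Farsa, the catalytic alpha subunit for phenylalanine (chromosome 8, 84856989 to 84869257, plus strand), had 33.1, 33.1 and 22.9 FPKM in oEV-EMT 1 to 3 and 16.2, 15.9 and 21.3 in oEV-ctrl 1 to 3. Its lowest oEV-EMT library lay just above its highest oEV-ctrl library. The means were 29.7 ± 5.9 and 17.8 ± 3.0 (SD, n = 3), and the log2 fold change was 0.70 ± 0.23 (SE; adjusted p = 0.215, limma). Farsb, the beta subunit (chromosome 1, 78417975 to 78488897, minus strand), had 159.2, 157.2 and 199.3 FPKM in oEV-EMT and 85.8, 133.1 and 116.8 in oEV-ctrl. Its gap between the groups was wider, and the library that was highest, oEV-EMT 3, was the lowest of its group for Farsa. Its log2 fold change was 0.63 ± 0.22 (SE; adjusted p = 0.232, limma).

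Kars, which charges lysine in both compartments (chromosome 8, 111993443 to 112011323, minus strand), had 121.7, 142.5 and 97.6 FPKM in oEV-EMT and 68.4, 68.5 and 94.9 in oEV-ctrl. Here too oEV-EMT 3 and oEV-ctrl 3 nearly met. Its log2 fold change was 0.64 ± 0.22 (SE; adjusted p = 0.234, limma). Its start site lies 75 bases from that of Terf2ip on the other strand, and Terf2ip, with 6.80, 4.64 and 3.86 FPKM against 7.33, 4.86 and 6.61, had a log2 fold change of -0.27. Rars (chromosome 11, 35808381 to 35834506, minus strand) had 215.2, 262.2 and 237.0 FPKM in oEV-EMT and 177.4, 199.4 and 194.0 in oEV-ctrl. The difference, 0.32 ± 0.18 (SE; adjusted p = 0.426, limma), was 0.15 above the median gene.

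Of the mitochondrial members, Cars2 (cysteine, chromosome 8, 11513977 to 11550783, minus strand) had 10.8, 11.6 and 9.24 FPKM in oEV-EMT and 7.64, 6.03 and 8.25 in oEV-ctrl. Its log2 fold change was 0.48 ± 0.22 (SE; adjusted p = 0.329, limma). It overlaps Naxd on the other strand over 984 bases, and the library kit did not mark strand, so reads there cannot be assigned. Lars2 (leucine, chromosome 9, 123366927 to 123462666, plus strand) had 1.33, 1.13 and 1.02 FPKM in oEV-EMT and 0.585, 0.336 and 0.831 in oEV-ctrl, on an estimated 32 to 190 pairs. Its log2 fold change was 0.46 ± 0.20 (SE; adjusted p = 0.310, limma), and the pseudocount of 1 holds it down at this level. Nars2 (asparagine, chromosome 7, 96951505 to 97064758, plus strand) had 3.93, 5.44 and 3.75 FPKM in oEV-EMT and 5.70, 5.73 and 6.30 in oEV-ctrl. It was the only member below all the oEV-ctrl values, and its log2 fold change was -0.38 ± 0.22 (SE; adjusted p = 0.442, limma). Its groups overlapped under TPM scaling and with the length or the GC trend taken off.

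**Figure D2:**
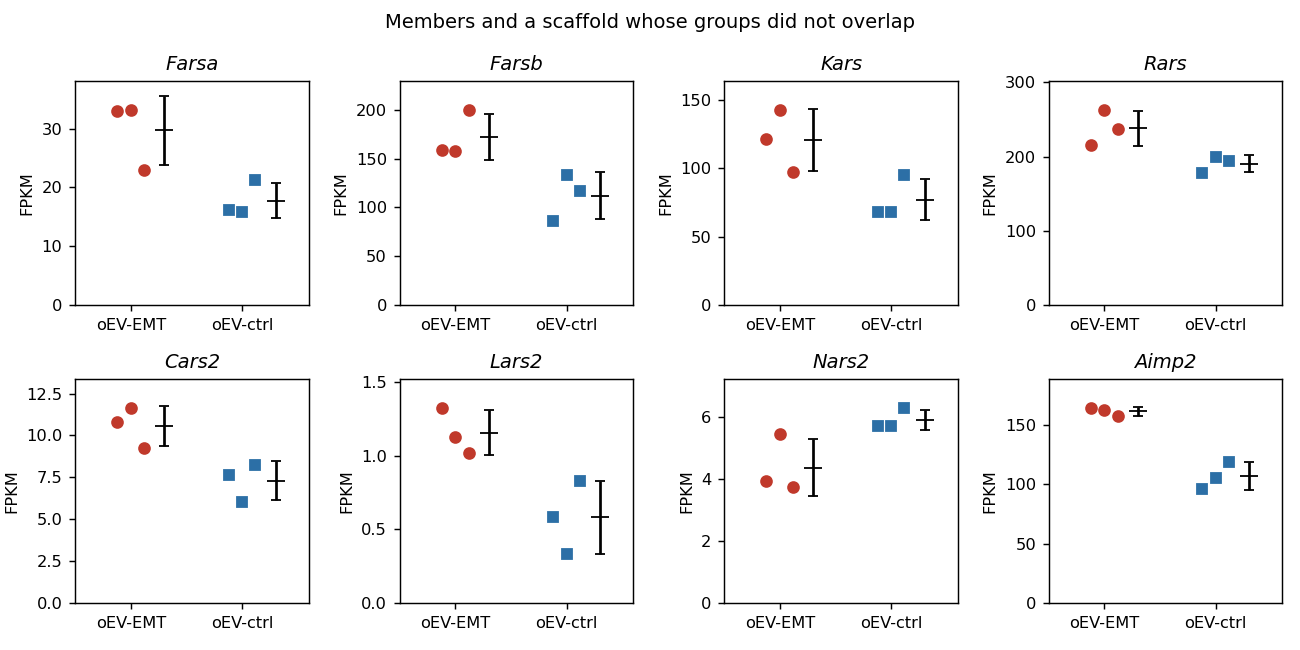
FPKM per library (red circles oEV-EMT, blue squares oEV-ctrl) with the mean and SD of each group in black, for the 7 members whose groups did not overlap and for the scaffold gene Aimp2. Nars2 is lower in oEV-EMT and the others are higher, and for Farsa and Kars the nearest libraries of the groups almost touch.

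The remaining members with the highest levels did not separate. Nars, for asparagine in the cytosol, had 142.5, 161.4 and 133.9 FPKM in oEV-EMT and 120.4, 132.0 and 142.2 in oEV-ctrl. Rars2 had 40.8, 46.4 and 44.1 FPKM against 24.2, 42.9 and 37.1, and 1 oEV-ctrl library, replicate 1, was far below the rest. Its neighbour Orc3, whose start lies 13 bases away on the other strand, was also lowest in oEV-ctrl 1, with 25.9 FPKM against 45.2 to 67.8 elsewhere. Fars2 had 16.4, 14.2 and 11.04 FPKM against 15.04, 9.53 and 13.5. The 28 tested members whose groups overlapped had log2 fold changes from -0.31 (Aars) to 0.53 (Tars2). Some of these share sequence with a neighbour and are uncertain to that extent. Aars overlaps Exosc6 on the same strand over 1326 bases and shares 13.8% of its 50-base stretches, mainly with that gene, which ran from 0.083 to 14.1 FPKM between libraries. Iars2 overlaps Rab3gap2 over 2034 bases and shares 22.7%, and Hars and Hars2 overlap head to head over 198 bases. Aars2, which was not tested, had 1.10, 0.962 and 0.592 FPKM against 0.678, 0.241 and 0.569.

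**Figure D3:**
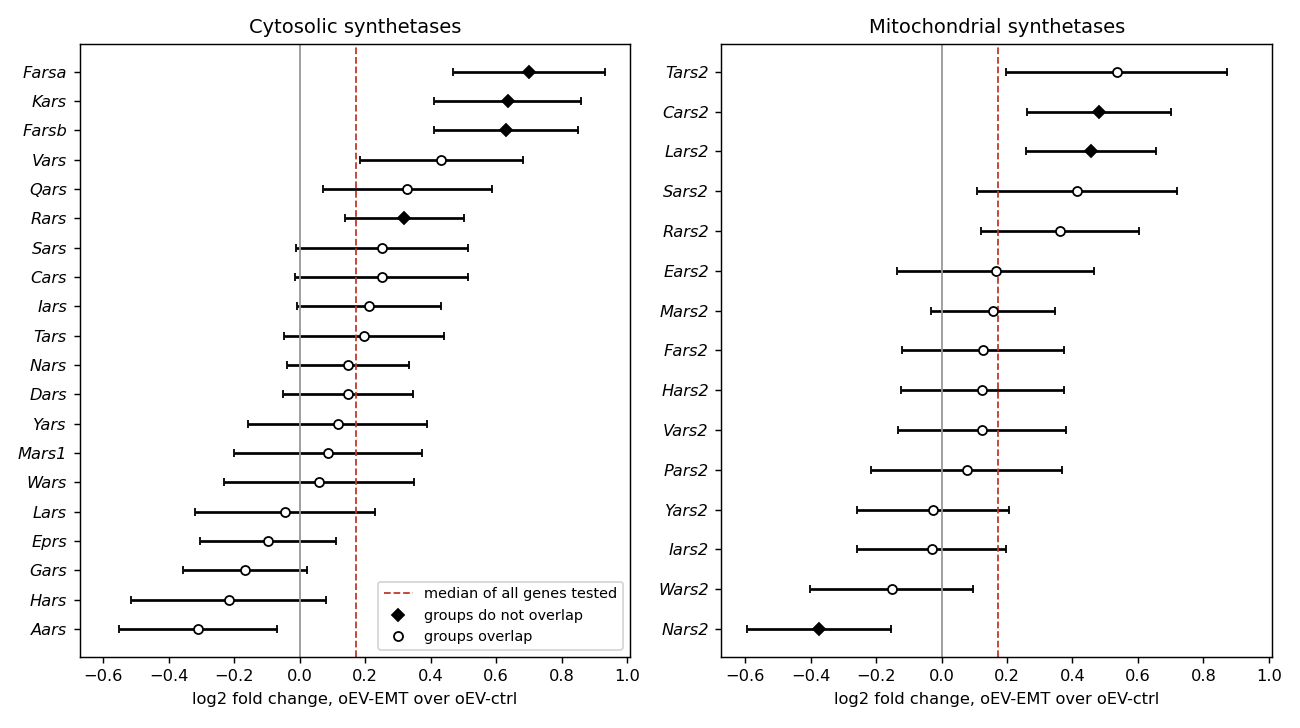
Log2 fold change (oEV-EMT over oEV-ctrl, log2(FPKM + 1) scale) with its SE for the tested cytosolic (left) and mitochondrial (right) members, with filled diamonds where the groups did not overlap and a dashed line at the median of all genes, 0.17. Members lie on both sides of the dashed line in both compartments.

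The compartments were compared by their medians and levels. The 20 cytosolic members had a median log2 fold change of 0.17, equal to that of all genes at this rounding, with 10 above it and 10 below. The 15 mitochondrial members tested had a median of 0.13, with 5 above the median gene and 10 below. Without oEV-EMT 3, the oEV-EMT library that was lowest for most members, the medians relative to all genes were 0.17 (cytosolic) and 0.06 (mitochondrial). The mean log2 level of the cytosolic members minus that of the mitochondrial ones was 2.94, 2.79 and 2.82 in oEV-EMT 1 to 3 and 2.85, 2.87 and 2.77 in oEV-ctrl 1 to 3. The groups overlapped, and their means differed by 0.02. As a share of all FPKM, the cytosolic members took 0.0864% to 0.104% in oEV-EMT and 0.0702% to 0.0841% in oEV-ctrl. That share did not overlap between the groups. It is weighted to the highest members, Rars and Farsb among them, and the median gene was itself 0.17 higher in oEV-EMT. The mitochondrial share, 0.00758% to 0.00998% against 0.00625% to 0.00817%, overlapped.

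By role the pattern was as mixed. The 8 enzymes of the multisynthetase complex (Dars, Eprs, Iars, Kars, Lars, Mars1, Qars and Rars) had a median of 0.18, and Kars and Rars were the 2 without overlap. The 12 cytosolic enzymes outside it had a median of 0.17, and Farsa and Farsb were the 2 without overlap. Over all genes tested, 18.1% were higher and 4.34% lower without overlap. Class I members had a median of 0.16 over 19 genes and class II members 0.15 over 16. Among the cytosolic members with a promoter entry, the 5 that held the C/EBP-ATF element had a median of 0.12, and the 8 without it had a median of 0.29. The difference between these small groups was not tested.

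The 3 scaffolds of the complex differed from each other. Aimp2 had 164.2, 162.5 and 157.3 FPKM in oEV-EMT and 95.9, 105.6 and 119.1 in oEV-ctrl. Its log2 fold change was 0.60 ± 0.18 (SE; adjusted p = 0.194, limma). Its groups were far apart, although it overlaps Eif2ak1 over 1548 bases and shares 26.7% of its 50-base stretches, mainly with that gene, which had 2.54 to 6.16 FPKM. Pms2, which starts 117 bases from Aimp2 on the other strand, also did not overlap, with 8.30, 5.66 and 7.39 FPKM against 2.64, 4.25 and 5.06. Eef1e1 was lower without overlap, with 35.8, 36.8 and 33.5 FPKM against 37.2, 51.0 and 44.9 and a log2 fold change of -0.31 ± 0.20 (SE; adjusted p = 0.495, limma). Aimp1 overlapped, at 0.05.

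**Figure D4:**
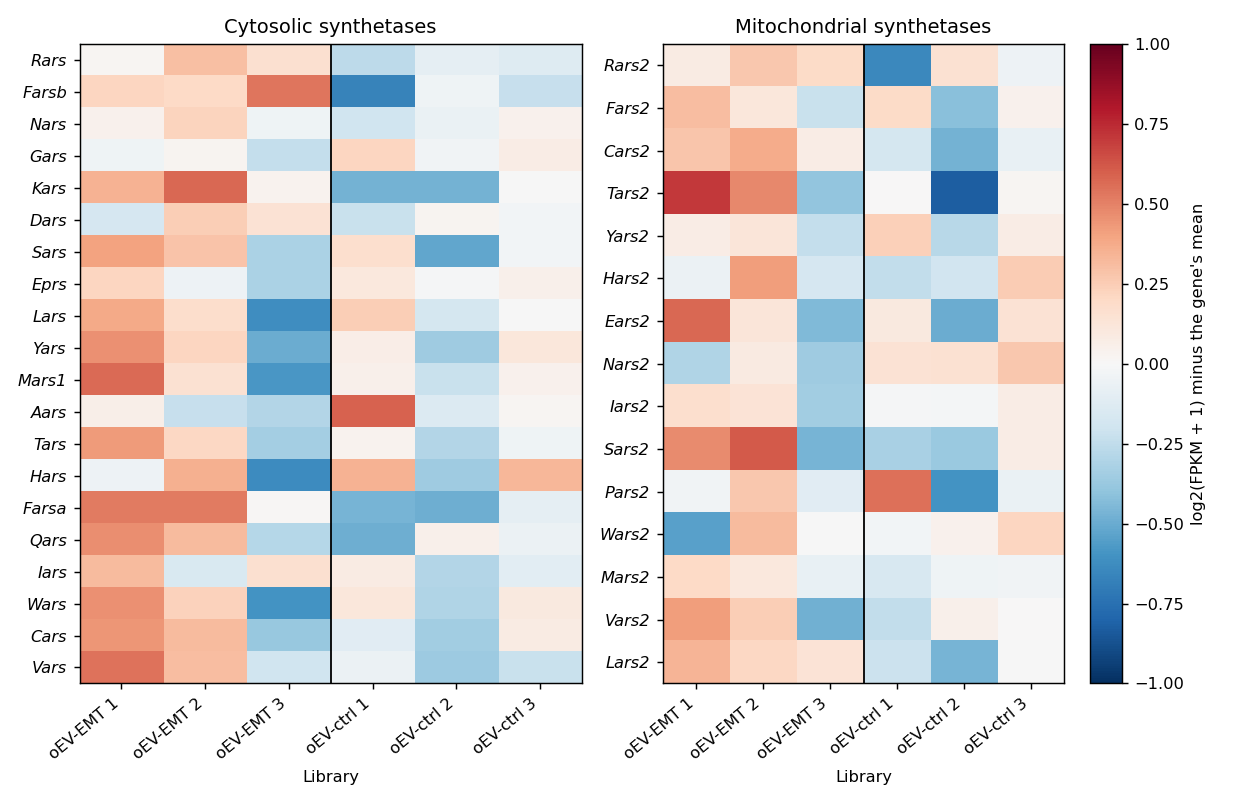
Deviation of each tested member from its own mean over the 6 libraries, on the log2(FPKM + 1) scale (red above, blue below), with a line between the oEV-EMT and oEV-ctrl libraries and genes ordered by level. Most cytosolic rows are blue in oEV-EMT 3 and in oEV-ctrl 2, while Farsb is red in all 3 oEV-EMT libraries.

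The libraries of 1 group differed among themselves in most members. Within oEV-EMT, replicate 3 was lowest for 16 of 20 cytosolic and 13 of 15 mitochondrial members, while it was lowest for 45.7% of all genes tested. Within oEV-ctrl, replicate 2 was lowest for 14 of 20 and 9 of 15, against 40.3% of all genes. Relative to the median gene, the median deviation of the cytosolic members from their own means was -0.28 in oEV-EMT 3 and 0.19 in oEV-EMT 1. Without oEV-EMT 3 the counts that did not overlap were 13 cytosolic and 8 mitochondrial members, 20 of them higher and 1 lower in oEV-EMT. Of all genes, 30.6% were then higher without overlap and 6.15% lower. That library was singled out because most members were low in it. A larger count of higher members without it was therefore largely set in advance and is no support. The rank correlation of a gene's deviation with its transcript length was -0.27 in oEV-EMT 3 and 0.26 in oEV-EMT 1, and with its GC content -0.39 in oEV-ctrl 2. Cytosolic members had a median transcript length of 3066 bases, mitochondrial ones of 3614 and all genes of 2669. The part of length and GC content in these differences was not tested beyond the fits with each trend taken off.

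Scaling between libraries moved which members separated. With median-of-ratios scaling, 4 were above without overlap (Farsa, Kars, Cars2 and Lars2) and 5 below (Aars, Eprs, Gars, Iars2 and Nars2), against 9.85% and 10.3% of all genes. With upper quartile scaling, 3 were above (Farsa, Cars2 and Lars2) and the same 5 below, against 7.59% and 12.5%. With TPM scaling, which left 32 members tested, 6 were above (Farsa, Farsb, Kars, Rars, Vars and Cars2) and 0 below, against 23.2% and 2.77%. Relative to the median gene of each fit, Farsa, Farsb, Kars, Rars, Cars2 and Lars2 stayed above 0 and Nars2 below 0 in every setting that tested them. These members were picked for not overlapping in the same libraries. The kept sign was therefore largely set in advance and is no support.

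The steps around charging were read from lists by the same fit, and 0 genes of them were called. Of 10 genes of editing and tRNA-dependent modification, which correct mischarged tRNA or finish the charging, 0 separated. Their lowest p were those of Prorsd1, Gatb and Pstk, with log2 fold changes of 0.38, 0.30 and 0.39. Of 12 tested genes of tRNA end processing, 1 separated. That was Rpp14, a subunit of RNase P, with 142.2, 127.7 and 151.4 FPKM against 104.1, 100.04 and 117.9. Of 8 cytosolic elongation and release factors, Gspt1, a release factor, separated and was lower, with 40.9, 40.9 and 40.7 FPKM against 51.2, 45.0 and 48.4. Of 10 mitochondrial translation factors, Mtif2, which brings the initiator tRNA to the ribosome, separated and was higher, with 15.6, 13.5 and 13.1 FPKM against 8.25, 9.08 and 11.8. Among all genes tested, 18.1% separated above and 4.34% below. The medians of these lists were 0.17, 0.19, 0.12 and 0.11, beside 0.17 for all genes.

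Of 23 genes of the amino acid response, 20 were tested and 2 separated, both higher in oEV-EMT, beside 18.1% of all genes tested. Phgdh, the first enzyme of serine synthesis, had 106.8, 99.1 and 73.4 FPKM against 59.8, 40.4 and 59.9, with a log2 fold change of 0.80 ± 0.24 (SE; adjusted p = 0.184, limma). Asns, which makes asparagine and is an Atf4 target, had 236.4, 226.6 and 269.0 FPKM against 161.2, 214.1 and 172.7, with a log2 fold change of 0.42 (adjusted p = 0.331, limma). Ddit3, another Atf4 target, had 56.8, 56.1 and 107.8 FPKM against 153.7, 80.8 and 93.1, a difference of -0.58, and its groups overlapped. Ddit3 and Mars1 overlap on opposite strands over 68 bases. The list as a whole had a median of 0.10, with 8 genes above the median gene and 12 below.

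Some markers of the inner cell mass stood apart between the groups. Nanog had 53.1, 46.2 and 56.1 FPKM in oEV-EMT and 12.98, 25.8 and 37.5 in oEV-ctrl, and Pou5f1 had 23.8, 23.9 and 15.4 against 10.4, 6.94 and 13.7. These 2 of 6 markers separated, and none of the 6 trophectoderm markers did, beside 18.1% of all genes above and 4.34% below. Sox2 and Gata6 of the same list had log2 fold changes of -0.32 and -0.19 and overlapped, as did Pdgfra (0.08) and Sox17 (0.95), and 3 of the 6 were below the median gene. The summed inner cell mass level was 92.0 to 109.8 FPKM against 52.2 to 83.2, with Nanog the largest part in oEV-EMT. The oocyte marker Zp3 had 1.08 to 1.61 FPKM in oEV-EMT and 0.120 to 0.792 in oEV-ctrl. Zp3 thus passed the filter through oEV-EMT alone, and its direction was nearly fixed by the filter. The part of cell make-up in the values of Farsa, Farsb, Kars and the other members was not tested.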

How the data were processed

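RNA from 6 pools of blastocysts (3 oEV-EMT, 3 oEV-ctrl) was sequenced after poly(A) selection. The authors assembled transcripts with StringTie, and the labels name mm10. The aligner and the versions are not given in the sources used here. The methods speak of TPM, but the deposited values sum to 1293175 to 1551567 per library, so they were taken as FPKM, relative to the fragments of each library. Groups came from the treatment label. The members, gene lists and motifs were chosen with earlier results of these data known. Values in each library were given for members whose groups did not overlap or with an unadjusted p of at most 0.05, for the 3 highest members of each compartment, and for at most 3 genes of other lists by p. For the class and promoter groups, counts and medians alone were given.

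From these FPKM, log2 values with a pseudocount of 1 entered limma 3.58.1 (R 4.3.3; trended, robust variance, Benjamini-Hochberg adjustment) for genes that reached an FPKM of 1 in 3 or more libraries. Alternatives covered scaling, pseudocount, filter, library weights, length and GC trends, a replicate block and each library left out. The fit was tested on simulated data. Library size was estimated from the most common step of FPKM times transcript length in 10660 single-transcript genes. Promoters came from RefSeq on GRCm38.p6. Shared sequence was sought in GENCODE M21 transcripts as identical 50-base stretches. Figures used matplotlib. Some promoter sequence is not reported here.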

Additional observations from a re-analysis of the deposited data

How the results depend on the processing

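The count of members called was 0 in all 16 alternatives, with adjusted p by limma from 0.0856 upward for the members given by library. TPM scaling left 1 mitochondrial member without overlap in place of 3, beside 23.2% of all genes above and 2.77% below. The filter was applied again to the TPM values, which left 32 members tested, and Lars2 was not among them. Without a filter, the medians relative to all genes were 0.15 for the cytosolic and 0.12 for the mitochondrial members, in place of 0.001 and -0.04. Taking off the filter left the log2 fold change of each tested member as it was. It changed the median that is subtracted, then taken over 31842 genes, and it let Aars2 in. With 1 library left out, the cytosolic median ran from -0.05 to 0.17 and the mitochondrial one from -0.09 to 0.06, highest without oEV-EMT replicate 3. Leaving out 1 library at a time, the cytosolic count without overlap ran from 5 to 13 and the mitochondrial count from 3 to 8, the highest values being those without oEV-EMT replicate 3. The share of all genes without overlap then ran from 21.8% to 30.6% above and from 5.89% to 12.6% below. Of 158 values of single members under the alternatives, 9 changed sign relative to the median gene. They were in Nars and Fars2, which lay near it, and in Rars2 (0.19 in the main fit), where only leaving out oEV-ctrl replicate 1 did so. Nars turned to 0.00321 with the GC trend taken off (chosen after seeing the data), 0.0345 with library weights and 0.125 without a filter, and ranged from -0.0888 to 0.0242 with 1 library left out. Fars2 turned to 0.10 without a filter and ranged from -0.20 to 0.10 with 1 library left out, and Rars2 ranged from -0.0187 to 0.378. The cause of the sign changes under settings other than the filter was not tested.

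With a replicate block, 0 members were called and the cytosolic median relative to all genes was 0.001 and the mitochondrial one -0.04. The block raised the calls over all genes from 0 to 21. Library weights raised them to 104, and leaving out oEV-EMT 1, oEV-EMT 3 or oEV-ctrl 3 to 4, 1 and 17, while the other alternatives gave 0. Same-numbered libraries deviated together with r of 0.119, -0.0442 and 0.0388. Nothing in the labels pairs them, and correlations over 3 libraries per group cannot show whether they shared a collection. Counts without overlap and the compartment difference were not computed under the block or library weights. Depth limits Aars2, Lars2 and Vars2, which rest on 20 to 46 estimated pairs in their lowest libraries.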
